A study of Mus musculus with 6 samples.

Results

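The genes of glutamate uptake and the glutamine cycle were followed in sorted mouse astrocytes, with and without a stab wound of the cortex. The 9 genes were Slc1a2, Slc1a3, Slc1a4, Glul, Glud1, Got1, Slc38a1, Slc38a3 and Slc25a18. They were chosen by name, with earlier results of these data known, so their counts beside all probe sets are descriptive and no independent test. They were measured by 24 of the 45037 probe sets tested, each assigned by the platform annotation to exactly 1 of these symbols, and they are 9 of the 18193 genes measured. A further 1 probe set names a member together with another gene and was not used.

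Gene expression was measured on 6 arrays, 3 per group, each hybridised with RNA of green fluorescent cells pooled from about 15 animals and sorted from the grey matter of the somatosensory cortex. The reactive group were FVB/N mice of 2 to 3 months carrying TgN(hGFAP-EGFP) GFEA, whose fluorescent protein is under a human GFAP promoter. Their cells were taken 5 days after a cortical stab wound, 0.7 mm in depth and 1 to 1.2 mm in length. The non-reactive group were uninjured FVB/N mice of the same age carrying Tg(Aldh1l1-eGFP)OFC789Gsat, whose reporter is under Aldh1l1 regulatory sequence. Injury and reporter line coincide in this design, and their contributions cannot be told apart. The treatment text also describes BrdU, a label of dividing cells, without saying whether the animals of these arrays received it, and the labels leave the sex undetermined.

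Astrocytes clear glutamate released at synapses through sodium-coupled transporters, convert it to glutamine with glutamine synthetase, and release the glutamine for neurons to turn back into transmitter. Part of the glutamate is instead broken down in mitochondria, after transamination or deamination to 2-oxoglutarate. In the cortex Slc1a2 and Slc1a3 are the main astrocytic glutamate transporters and Glul is a classical astrocyte enzyme.

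Both glutamate transporter genes, Slc1a2 and Slc1a3, were lower in the reactive arrays at every probe set, though not every probe set passed the test. At its brightest probe set Slc1a2 differed by -2.16 (log2) and did not pass (limma adjusted p = 0.0982). Glul, the glutamine synthetase gene, was also lower without overlap at its brightest probe set, by the smaller difference of -0.32, and did not pass. Of the 24 probe sets 4 fell, 1 of Slc1a2 and 3 of Slc1a3, with log2 fold changes of -3.24 to -1.62, and 0 rose (limma, Benjamini-Hochberg adjusted p of 0.0249 to 0.0497). Over all 45037 probe sets, 0.584% fell and 0.266% rose. The reactive arrays lay entirely below the non-reactive arrays at 17 of the 24 probe sets and entirely above at 0, against 8.08% and 12.8% of all probe sets. The median log2 fold change of the 24 was -1.59, beside 0.10 over all probe sets. At an unadjusted p under 0.05, 16 of the 24 were lower and 0 higher, against 6.9% and 6.34% of all probe sets. Of the 24 probe sets 11 read Slc1a2 or Slc1a3, so these genes weigh heavily in the counts and the median of probe sets. At the brightest probe sets 6 of the 9 genes had reactive arrays entirely below, beside 8.08% of all probe sets. At the brightest probe set of each gene, 1 of 9 genes, Slc1a3, fell, against 0.561% of all genes, and the median was -0.97 beside 0.12 over all genes. Of the 24, 23 had a mean over the 6 arrays at or above 4.74, the median of all probe set means, and 1, a dim Slc1a2 probe set, lay below it.

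**Figure D1:**
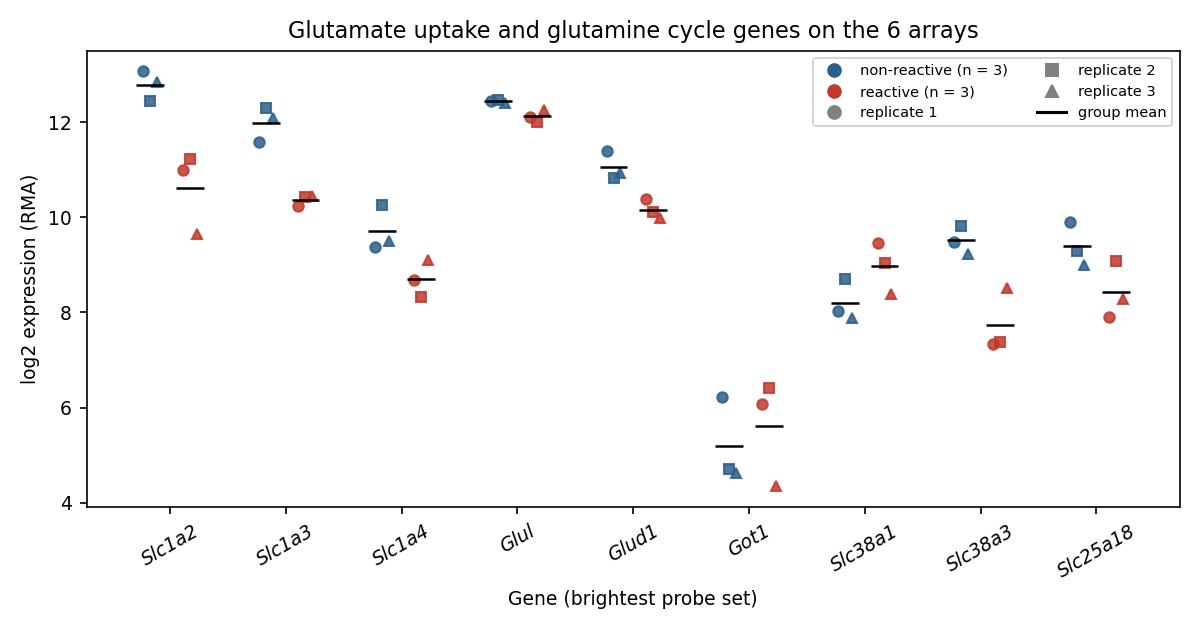
Deposited log2 expression (vertical axis) of the 9 genes at their brightest probe set on the 3 non-reactive (blue) and 3 reactive (red) arrays; symbols mark the replicate and black lines the group means. Reactive Slc1a2 values lie at 9.65 to 11.22 and non-reactive ones at 12.45 to 13.07, whereas the Glul groups lie 0.32 apart and those of Got1 overlap.

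The start regions of 3 members are shown because they are the genes between which the result turns: Slc1a2 and Slc1a3, which held the called falls, and Glul. The table of RefSeq start sites (build GRCm38.p6) had an entry for 7 of the 9 members, and the 250 bases before the start are printed 5′ to 3′ in the direction of the gene, with the motifs found in capitals.
Slc1a2, chr2:102706188-102706437, plus strand: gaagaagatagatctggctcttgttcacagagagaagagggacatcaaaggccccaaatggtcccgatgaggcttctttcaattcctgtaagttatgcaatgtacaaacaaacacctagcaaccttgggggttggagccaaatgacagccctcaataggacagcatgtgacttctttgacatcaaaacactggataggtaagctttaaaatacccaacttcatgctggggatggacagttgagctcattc
Slc1a3, chr15:8710808-8711057, minus strand: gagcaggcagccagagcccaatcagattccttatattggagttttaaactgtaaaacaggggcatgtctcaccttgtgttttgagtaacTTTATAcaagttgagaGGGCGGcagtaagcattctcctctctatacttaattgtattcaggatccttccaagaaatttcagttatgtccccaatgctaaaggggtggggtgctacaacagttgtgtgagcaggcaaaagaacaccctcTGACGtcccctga
Glul, chr1:153899679-153899928, plus strand: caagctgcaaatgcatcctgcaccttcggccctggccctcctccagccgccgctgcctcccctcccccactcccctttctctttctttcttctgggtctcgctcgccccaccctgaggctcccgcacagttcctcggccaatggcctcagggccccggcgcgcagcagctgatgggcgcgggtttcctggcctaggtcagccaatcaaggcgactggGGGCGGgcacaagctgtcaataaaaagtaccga
The motifs searched, on both strands, were the TATA box (TATAAA), the GC box (GGGCGG), the core of the cyclic AMP response element (TGACG), the AP-1 site (TGANTCA) and an E-box (CACGTG). The Slc1a3 region held TATAAA on the opposite strand 161 to 156 bases before the start, GGGCGG 145 to 140 before it and TGACG 13 to 9 before it, which did not overlap. The Glul region held GGGCGG 33 to 28 bases before the start, and none of the 5 motifs was found in the Slc1a2 window. Of 32851 such regions in the table, 12.4% held the TATA box letters, 32.7% the GC box, 17.8% the TGACG core, 6.75% the AP-1 site and 6.02% the E-box. The Slc1a2 start used by the table is 1 of the gene's transcripts and is not the outermost start of the gene. GC content was 44.8% in the Slc1a2 and Slc1a3 regions and 64.8% in that of Glul, with a median of 52.4% over all regions. These matches describe the sequence and were not tied to the expression values.

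Slc1a2 encodes the transporter GLT-1, which carries most glutamate uptake in the forebrain. Its brightest probe set, 1438194_at, read 11.00, 11.22 and 9.65 on the reactive arrays and 13.07, 12.45 and 12.84 on the non-reactive arrays (replicates 1, 2 and 3, log2). All reactive arrays lay below all non-reactive arrays, with reactive replicate 3 lowest. The log2 fold change was -2.16 (SE 0.44, 95% interval -3.21 to -1.11) and missed the threshold (limma adjusted p = 0.0982). Probe set 1439940_at read 7.53, 7.64 and 6.61 in the reactive and 10.84, 10.04 and 10.60 in the non-reactive arrays. It fell 9.42-fold, from 10.50 ± 0.41 to 7.26 ± 0.56 (log2, SD, n = 3), with the smallest limma adjusted p of the 24 probe sets, 0.0249. Leaving out reactive replicate 1 ended that call (limma adjusted p = 0.0648), and so did leaving out non-reactive replicate 1 (0.0915), 2 (0.0788) or 3 (0.0973), in a range of 0.0223 to 0.111 over 15 alternatives. With the replicate block it was 0.111.

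The other Slc1a2 probe sets were lower as well but more scattered. Probe set 1451627_a_at read 4.58, 7.48 and 7.39 in the reactive and 9.75, 9.56 and 9.68 in the non-reactive arrays. Here reactive replicate 1, not replicate 3, was far below the others. The log2 fold change was -3.18 (SE 0.76, limma adjusted p = 0.138), and without reactive replicate 1 it fell by 2.23 and passed (limma adjusted p = 0.0494). Probe set 1433094_at, at 5.55, 4.94 and 6.86 against 8.60, 9.42 and 6.99, differed by -2.56 (SE 0.72, limma adjusted p = 0.209). The dim probe set 1459014_at, whose group means of 3.70 and 4.25 both lay below 4.74, differed by -0.55 (SE 0.33). Averaged over its 5 probe sets on each array, Slc1a2 differed by -2.34 (SE 0.24) and passed (limma adjusted p = 0.0188, adjusted over the 18193 genes).

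Slc1a3 encodes GLAST, the other astrocytic glutamate transporter. Its 6 probe sets were all lower, with log2 fold changes of -2.05 to -1.55 and reactive arrays below non-reactive arrays at every one. Probe set 1452031_at read 6.32, 6.86 and 6.73 in the reactive and 8.57, 8.23 and 8.26 in the non-reactive arrays, a 3.29-fold fall (SE 0.23 on the log2 scale, limma adjusted p = 0.0387). The brightest, 1443749_x_at, read 10.24, 10.42 and 10.44 against 11.59, 12.29 and 12.09. It fell by 1.62 (SE 0.24, limma adjusted p = 0.0475), and its suffix marks probes that may also read other transcripts. Probe set 1439072_at, at 5.28, 5.02 and 5.70 against 6.79, 7.41 and 7.05, fell by 1.75 (SE 0.27, limma adjusted p = 0.0497). At these 3 probe sets the reactive arrays differed among themselves by less than the gap between the groups.

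The remaining Slc1a3 probe sets did not pass. Probe set 1426340_at, at 6.48, 7.89 and 8.25 against 9.74, 9.50 and 9.53, differed by -2.05 (SE 0.46), with reactive replicate 1 lowest, as at 1451627_a_at of Slc1a2. Probe sets 1440491_at and 1426341_at differed by -1.82 (SE 0.44) and -1.55 (SE 0.41). The mean of the 6 probe sets differed by -1.75 (SE 0.20) and passed (limma adjusted p = 0.0205, adjusted over the 18193 genes). The calls at 1443749_x_at, 1452031_at and 1439072_at were lost when any 1 array was left out, at limma adjusted p of 0.0612 to 0.178. At 1439072_at the call held in 1 of 15 alternatives, at 1443749_x_at in 3 of 14 and at 1452031_at in 6 of 15, with adjusted p of 0.0293 to 0.214 over all of them.

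**Figure D2:**
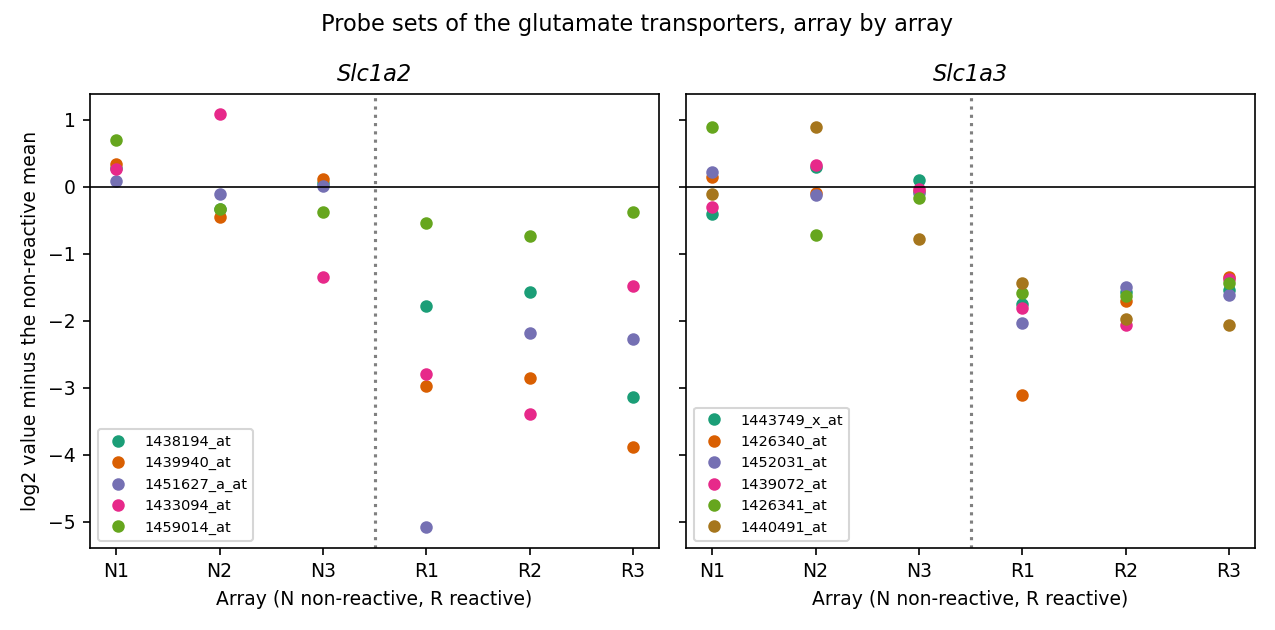
Log2 value of each Slc1a2 (left) and Slc1a3 (right) probe set minus its own non-reactive mean (vertical axis), by array; N1 to N3 are the non-reactive and R1 to R3 the reactive replicates, and each colour is 1 probe set. The 6 Slc1a3 probe sets lie close together on the reactive arrays apart from 1426340_at on R1, whereas those of Slc1a2 spread widely and differ in which reactive array is lowest.

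Slc1a4 encodes ASCT1, an exchanger of alanine, serine and cysteine that belongs to the same family but does not carry glutamate as its main substrate. Its probe sets disagreed. The brightest, 1456003_a_at, read 8.69, 8.32 and 9.11 in the reactive and 9.37, 10.26 and 9.51 in the non-reactive arrays and differed by -1.01 (SE 0.33, limma adjusted p = 0.27). The groups did not overlap there, while at 1423550_at (0.52, SE 0.34) and 1423549_at (0.40, SE 0.42) they did. The mean of the 3 differed by -0.03 (SE 0.19), so no direction for the gene can be given.

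Glul, which makes glutamine from glutamate and ammonia, read 12.11, 11.99 and 12.26 in the reactive and 12.45, 12.46 and 12.40 in the non-reactive arrays at 1426236_a_at. The reactive arrays were lower without overlap, but the difference was -0.32 (SE 0.18, 95% interval -0.76 to 0.12, limma adjusted p = 0.509). The dimmer 1426235_a_at, at 8.14, 9.50 and 8.59 against 10.19, 9.06 and 8.83, overlapped and differed by -0.61 (SE 0.48). The intervals of the brightest Glul and Slc1a2 probe sets, with the lower end at -0.76 for Glul and the upper end at -1.11 for Slc1a2, did not overlap.

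Slc1a2 was compared with each other member within each array, at the brightest probe sets. The value used was that of Slc1a2 minus that of the other gene. Slc1a2 had the most negative difference of the members there (-2.16), so the group differences of all 8 pairs were below 0 by this choice of reference. Their sign is therefore no test. The overlaps and exact p-values given here do not allow for that choice and are descriptive. Slc1a2 minus Glul was -1.10, -0.77 and -2.61 on the reactive and 0.62, -0.01 and 0.44 on the non-reactive arrays. The group difference was -1.85, and all reactive arrays lay below all non-reactive ones. Against Glud1 the group difference was -1.27, against Slc25a18 -1.19, against Got1 -2.59 and against Slc38a1 -2.92, each without overlap. The exact two-sided permutation test gave p = 0.1 for each of these 5, the smallest that 3 against 3 arrays allow, and 0.16 after Benjamini-Hochberg adjustment over the 8 pairs. At the brightest probe sets the groups overlapped against Slc1a3 (-0.54, exact p = 0.6), Slc38a3 (-0.39, exact p = 1) and Slc1a4 (-1.15, exact p = 0.3). With the mean of each gene's probe sets, the difference against Slc1a3 was -0.58 and that against Slc1a4 was -2.31, both without overlap (exact p = 0.1, the smallest possible). Without the _x_at, _s_at and _a_at probe sets they were -0.11 (exact p = 1) and -2.69 (exact p = 0.1), and the difference against Slc38a1 was -1.43 (exact p = 0.1). Without reactive replicate 3 the difference against Slc38a3 was 0.49.

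Glud1, the mitochondrial glutamate dehydrogenase that turns glutamate into 2-oxoglutarate, read 10.38, 10.11 and 9.98 in the reactive and 11.39, 10.82 and 10.93 in the non-reactive arrays at 1448253_at. At 1416209_at it read 8.77, 9.32 and 8.44 against 10.85, 9.83 and 10.77. The reactive arrays were lower without overlap at both, with differences of -0.89 (SE 0.24, limma adjusted p = 0.185) and -1.64 (SE 0.37, limma adjusted p = 0.121), and neither passed. Got1, the cytosolic aspartate aminotransferase, read 6.08, 6.42 and 4.34 against 6.22, 4.72 and 4.63, with a difference of 0.42 (SE 0.66, 95% interval -1.15 to 2.00). Both groups spread widely, and the interval spans 0, so neither direction nor size of a difference can be given for Got1.

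Slc25a18, a mitochondrial carrier that brings glutamate into the matrix, read 7.91, 9.08 and 8.28 in the reactive and 9.90, 9.30 and 8.99 in the non-reactive arrays. The groups overlapped at 1 array, reactive replicate 2, and the difference was -0.97 (SE 0.38, limma adjusted p = 0.349).

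Slc38a3 encodes SNAT3, through which astrocytes release glutamine. Probe set 1418706_at read 7.33, 7.37 and 8.51 in the reactive and 9.49, 9.82 and 9.23 in the non-reactive arrays, a difference of -1.78 (SE 0.37, limma adjusted p = 0.103). Probe set 1446013_at, at 6.17, 5.53 and 6.69 against 7.82, 8.27 and 7.52, differed by -1.74 (SE 0.36, limma adjusted p = 0.0987). Neither passed, although the groups did not overlap and both probe sets gave nearly the same difference. Without reactive replicate 3, the highest of the reactive arrays, 1418706_at fell by 2.16 and passed (limma adjusted p = 0.0485). Slc38a1, a glutamine importer best known in neurons, gave opposite signs. Its brightest probe set, 1454764_s_at, read 9.47, 9.05 and 8.38 against 8.04, 8.69 and 7.88 and differed by 0.76 (SE 0.36). Its other, 1415903_at, at 6.23, 7.58 and 6.45 against 7.50, 7.21 and 7.75, differed by -0.74 (SE 0.39), and neither passed.

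**Figure D3:**
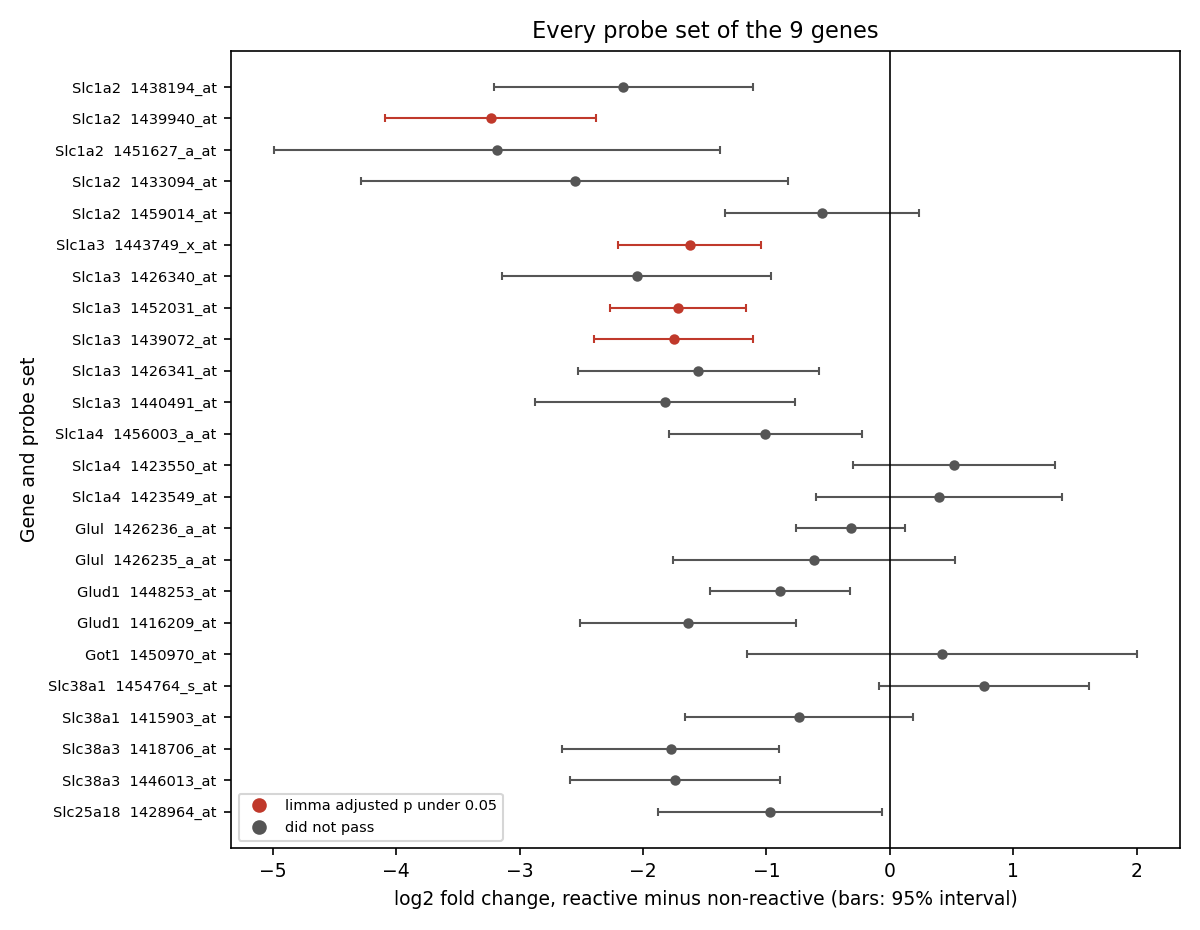
Log2 fold change, reactive minus non-reactive (horizontal axis), of all 24 probe sets with its 95% interval from limma; red marks an adjusted p under 0.05 over all probe sets. The 4 red points belong to Slc1a2 and Slc1a3, and the 4 points above 0 belong to Slc1a4, Got1 and Slc38a1.

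Other genes that handle glutamate and glutamine were read at their brightest probe sets. Of 15 measured membrane transporters 0 rose and 0 fell (limma, 2 with an unadjusted p under 0.05), and their median log2 fold change was 0.31. Slc38a2, a glutamine importer, differed by 0.36 and Slc7a5, a large neutral amino acid transporter, by 0.17, or by -0.33 without reactive replicate 3. Slc1a1, a glutamate transporter best known in neurons that was picked with its values known, measured 7.82 against 7.11, a difference of 0.71 (SE 0.27, limma adjusted p = 0.336).

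Of 20 measured enzymes of glutamate and glutamine 2 fell and 0 rose, and the median was -0.16. Prodh, proline dehydrogenase, the first step from proline to glutamate, read 8.72, 8.04 and 7.86 in the reactive and 10.10, 10.60 and 10.47 in the non-reactive arrays and fell 4.54-fold (limma adjusted p = 0.0373). Pcx, pyruvate carboxylase, which replenishes the carbon used to make glutamate in astrocytes, read 6.66, 7.08 and 7.30 against 8.52, 8.73 and 9.04 and fell 3.35-fold (limma adjusted p = 0.0462). The calls of both were lost when any 1 array was left out, at limma adjusted p of 0.0512 to 0.166. The bright enzymes Got2, the mitochondrial aspartate aminotransferase, and Gpt2, an alanine aminotransferase, differed by 0.11 (SE 0.24) and -0.06 (SE 0.33) at their brightest probe sets. Without the _x_at, _s_at and _a_at probe sets Got2 was at -0.44 and Gpt2 at -0.26, and averaged over its probe sets Gpt2 was at -0.60 (SE 0.31), so no direction can be given for either.

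Of 4 measured mitochondrial carriers of glutamate and aspartate 0 rose and 0 fell (limma, 0 with an unadjusted p under 0.05), with a median of 0.49. Slc25a22, the other glutamate carrier of the inner membrane, differed by 0.52 and Slc25a11, the oxoglutarate carrier, by 0.50. Of 14 measured binding partners and regulators of the transporters 1 fell, Pax6, a transcription factor of radial glia and astrocytes, by 1.48 (limma adjusted p = 0.0497). The Pax6 call held in 1 of 16 alternatives, and averaged over its probe sets Pax6 was at -0.41 (limma adjusted p = 0.407). Kcnj10, a potassium channel of astrocytes, differed by -0.82 and Ndrg2, an abundant astrocyte gene, by -1.16. The median of that list was -0.38, and 12 of the 14 were below 0. Reactive arrays lay entirely below at 6 and entirely above at 1, beside 8.08% and 12.8% of all probe sets. An unadjusted p under 0.05 (limma) was found for 7, beside 6.9% lower and 6.34% higher of all probe sets. Atp1b2 stands both in this list and among the astrocyte markers.

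**Figure D4:**
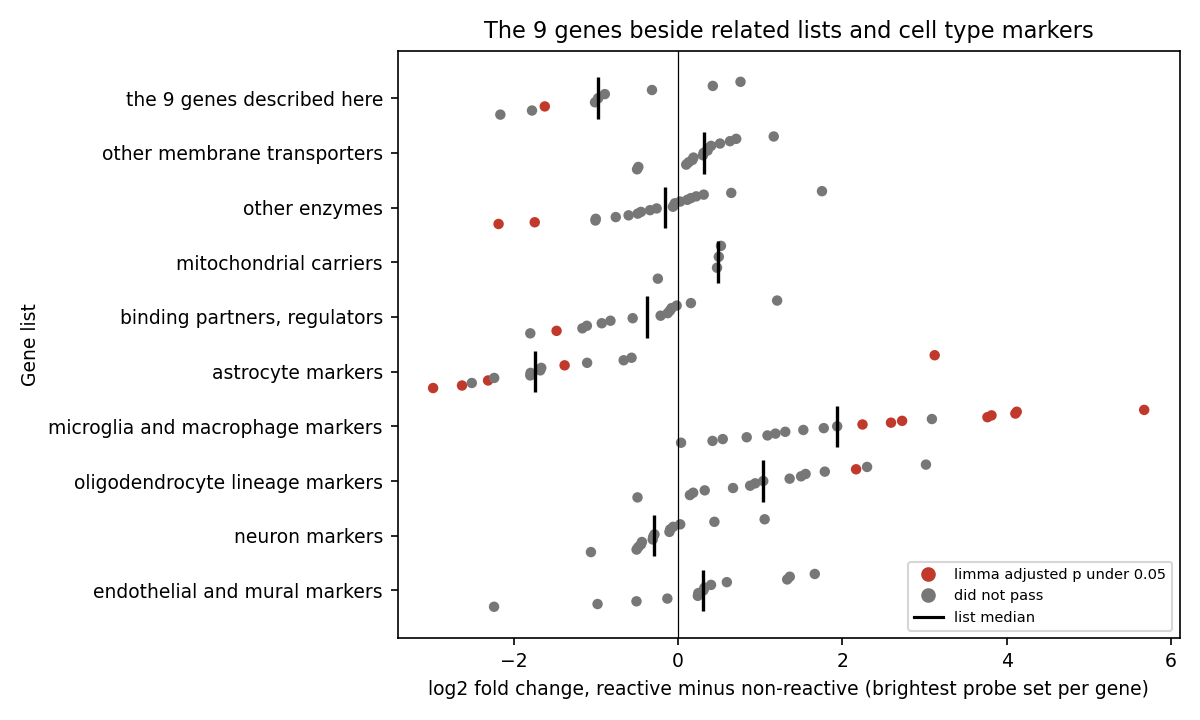
Log2 fold change, reactive minus non-reactive (horizontal axis), of each gene at its brightest probe set, by gene list; red marks a limma adjusted p under 0.05 and the vertical bar is the list median. The 9 genes have a median of -0.97, between that of the astrocyte markers (-1.74) and those of the other enzymes (-0.16) and other membrane transporters (0.31).

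The genes with the profile most like Slc1a2 over the 6 arrays, after centring each probe set on its mean, were Cyp2j9, Gabrb1 and Trim41, with root mean square differences of 0.15, 0.20 and 0.21 (log2) among 18184 genes outside the 9. For Slc1a3 they were Tbce, Vegfa and Slc35f1, at 0.14, 0.15 and 0.17. For Glul they were Zmat2, Smpd4 and Ggt5, at 0.06, 0.07 and 0.07, and these differed by -0.24 to -0.28 between the groups. With 6 arrays in 2 groups any gene with a like group difference lies near on this measure.

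The cells were also read with markers of cell types. Of 14 astrocyte markers 4 fell and 1, Gfap, rose, and 12 had reactive arrays below non-reactive ones, with a median of -1.74. Slc4a4, Gjb6, Sox9 and Gja1 fell by 2.98, 2.63, 2.31 and 1.38, while Aldh1l1, picked with its value known because its regulatory sequence drove the sort of the non-reactive cells, differed by -0.57, the least of the 14. Gfap rose by 3.12 (limma adjusted p = 0.0492), but a GFAP promoter also drove the sort of the reactive cells. The Gfap call held in 3 of 16 alternatives and that of Gja1 in 5 of 16, and without the _x_at, _s_at and _a_at probe sets Gfap was at 2.18 (limma adjusted p = 0.263). The summed linear signal of the astrocyte markers was 18765 to 20307 on the reactive and 34674 to 49129 on the non-reactive arrays, and that of the 9 genes 9690 to 10590 and 21160 to 22586. In pools of cells, fewer cells of a type and less RNA per cell cannot be told apart.

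Markers of microglia and macrophages moved the other way. Of 19 measured, 8 rose, all 19 had log2 fold changes above 0, and their summed signal was 28255 to 44407 on the reactive and 10276 to 10744 on the non-reactive arrays. Lyz2 rose by 5.67, Cd68 by 4.12, Cd14 by 4.10 and C1qc by 3.81, while the bright Csf1r differed by 0.42. Itgam, at 3.79 and 3.25 and picked with its values known, was the marker of this list below 4.74 in both groups. Markers of the oligodendrocyte lineage were mostly higher as well. Of 15 measured, 14 had log2 fold changes above 0, 6 had reactive arrays entirely above the non-reactive ones and 9 had an unadjusted p under 0.05, with a median of 1.04, while 1, Ermn, rose, by 2.17 (limma). Cnp differed by 1.04, and Mbp, the brightest and the 1 marker below 0, by -0.49. The summed signal of the list, to which Mbp adds most, overlapped at 25949 to 28787 against 20823 to 26714. Of 14 neuronal and 13 endothelial and mural markers 0 rose and 0 fell (limma, 1 and 3 with an unadjusted p under 0.05). Their summed signals overlapped between the groups, at 10106 to 18750 against 15604 to 20673 and at 443 to 1630 against 650 to 1189. Of the 10 marker calls given here, 7 were lost when any 1 array was left out, at limma adjusted p of 0.0511 to 0.18. Those of Lyz2 and Slc4a4 held without reactive replicate 2 or 3 and that of Sox9 without reactive replicate 1 or 3, and with the replicate block 0 of the 10 held. The 3′ minus 5′ difference of the control probe sets, a reading of RNA length, averaged 4.17 against 5.19 for Gapdh, 3.38 against 5.05 for Actb and 1.44 against 3.46 for Pcx, each lower in the reactive group. Pcx itself fell 3.35-fold at its brightest probe set, and how far that enters its reading was not tested. The part of the marker and control shifts in the values of the 9 genes was not tested.

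At the brightest probe sets, Slc1a2, Slc1a3 and Slc38a3 differed between the groups by about as much as the 13 astrocyte markers other than Gfap did on average. Glul and Glud1 differed by less there. Averaged over each gene's probe sets, Slc1a2 differed by -2.34, Slc1a3 by -1.75, Slc38a3 by -1.76, Glud1 by -1.26 and Glul by -0.47. Single probe sets departed from this order, with 1439940_at of Slc1a2 at -3.24 and 1416209_at of Glud1 at -1.64. The mean log2 value of 13 astrocyte markers without Gfap differed by -1.79. Beside it stood -2.16 for Slc1a2, -1.62 for Slc1a3, -1.78 for Slc38a3, -0.89 for Glud1 and -0.32 for Glul. Gfap, which rose by 3.12, was left out with its value known, while Aldh1l1, tied to the other sort, was kept. The 13 markers ranged from -2.98 for Slc4a4 to -0.57 for Aldh1l1, a span that also holds Glud1. After that mean was subtracted on each array, a scale chosen with the values known, Slc1a2, Slc1a3 and Slc38a3 differed by -0.37, 0.17 and 0.02, with overlapping groups (exact two-sided permutation p of 0.4, 0.8 and 1). The subtraction adds 1.79 to every gene's difference, so that a gene with little difference of its own comes out higher in the reactive arrays by construction. Got1, whose groups overlapped before, came out at 2.22, Slc38a1 at 2.55 and Glul at 1.48. Glud1, Slc25a18 and Slc1a4 came out at 0.90, 0.82 and 0.78. These 6 values describe the marker shift as much as the genes and are given without a test.

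**Figure D5:**
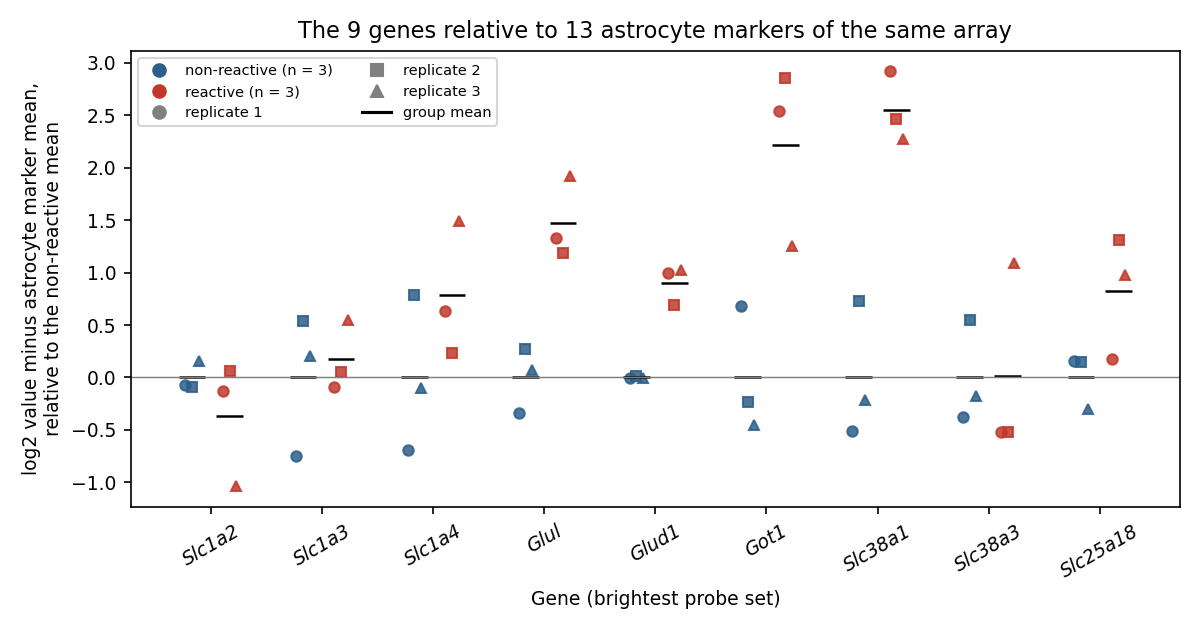
Log2 value of each of the 9 genes minus the mean of 13 astrocyte markers on the same array, drawn relative to the non-reactive mean of the gene (vertical axis), for the 3 non-reactive (blue) and 3 reactive (red) arrays; symbols mark the replicate and black lines the group means. The marker mean itself differs by -1.79. Slc1a2, Slc1a3 and Slc38a3, whose own differences lay nearest to it, therefore lie near 0 and overlap between the groups. Genes with small differences of their own, such as Got1 and Glul, lie above 0 in the reactive arrays for the same reason.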

How the data were processed

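RNA of sorted cells was amplified in 2 rounds and hybridised to Affymetrix mouse expression arrays. The authors deposited log2 expression values made with RMA, per the submitters' processing notes; its version and background setting are not stated in the labels. Such normalisation equalises the distributions of the arrays, so a change in total RNA per cell is not visible. Apart from the normalisation, bright values on arrays can be compressed. Its part in the bright readings of Glul (11.99 to 12.46) and Slc1a2 was not tested. Array medians were 4.65 to 4.73. Reactive arrays correlated with each other at 0.901 to 0.921, non-reactive arrays at 0.95 to 0.963 and arrays of different groups at 0.889 to 0.93. The reactive arrays were thus less alike among themselves than the non-reactive ones.

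Tests excluded the 64 control probe sets. Of the other 45037, the platform annotation gave 1 gene symbol to 34945, several to 932 and none to 9160; 34741 gene identifiers were found in a GRCm38.p6 gene table, and 0 symbols changed. A gene was represented by its probe set with the highest mean. Reactive was compared with non-reactive in limma 3.58.1 (R 4.3.3; lmFit, then eBayes), two-sided, without covariates, with Benjamini-Hochberg adjustment over all 45037 probe sets and a threshold of 0.05. SE stands for limma's moderated standard error; intervals are at 95%. On simulated data for the same 45037 probe sets, 0% of 67 changes of 1 on the log2 scale were called. Of 67 changes of 2, 31.3% were called, and of 66 changes of 3, 60.6%, with 5 false calls. Only these probe sets were changed, and values were drawn from normal distributions, so the rates need not hold for the real data. The number of arrays limits the precision. The labels call the arrays biological replicates, each of pooled cells.

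Named were all probe sets of the 9 genes, the genes past the threshold and the 2 brightest of each of 4 related lists, the 3 most alike genes of Slc1a2, Slc1a3 and Glul, and from each marker list the 2 brightest and up to 4 past the threshold, of which not all are printed; Slc1a1, Aldh1l1 and Itgam were added with their values known. The members and lists were chosen with earlier results of these data known. Alternatives were cyclic loess, median centring, trended or robust eBayes, array weights, a filter on low values, averaging all probe sets of a gene, removal of _x_at, _s_at and _a_at probe sets, the replicate number as a block, a test against a 1.5-fold change and each array left out. The fit on averaged probe sets was adjusted over the 18193 genes, and filtered fits over the probe sets left.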

Additional observations from a re-analysis of the deposited data

How the results depend on the processing

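All 24 probe sets kept their sign under each alternative scaling, filter, fit and left-out array that could be computed for them, but the calls did not hold widely. The number of member probe sets past the threshold, 4, was 2 with cyclic loess, with a trended or robust eBayes, with array weights and without _x_at, _s_at and _a_at probe sets, and 0 with the replicate block and in the test against a 1.5-fold change; leaving out each array gave 0 to 2. Over all 45037 probe sets the count of 383 was 1 with the replicate block, 41 against a 1.5-fold change and 1 to 173 with an array left out, with 1 to 4 without a non-reactive array. It was 403 with cyclic loess, 322 with trended and 285 with robust eBayes, and 324 with array weights. Without _x_at, _s_at and _a_at probe sets it was 262, or 0.726% of those left. The count of member genes, 1, was 2 when a gene's probe sets were averaged. The share of all genes past the threshold in that fit was not counted, so the 2 stands without a background. The count was 0 with cyclic loess, robust eBayes, array weights, removal by suffix, the replicate block or the 1.5-fold test. With an array left out it was 0 to 1. The causes of these shifts in the counts were not tested. The median of the member genes, -0.97, was -0.92 with array weights and -1.11 to -0.72 with an array left out.

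Without _x_at, _s_at and _a_at probe sets the sign turned for Slc1a4 (0.52), Slc38a1 (-0.74), Got2 (-0.44), Smpd4 (0.028) and Ggt5 (0.38); Glul had no probe set left. The mean of its probe sets gave 0.026 for Ggt5. With an array left out Got2 ranged from -0.052 to 0.27, Gpt2 from -0.35 to 0.23, Slc7a5 from -0.33 to 0.53 and Slc1a2 minus Slc38a3 from -0.87 to 0.49. Relative to the astrocyte markers, which adds 1.79 to each difference, the sign turned for Slc1a3 (0.17), Slc1a4 (0.78), Glul (1.48), Glud1 (0.90), Slc25a18 (0.82) and Slc38a3 (0.016).

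The labels do not say that equal replicate numbers share anything. Deviations of same-numbered arrays from their group means correlated at -0.07, -0.11 and 0.04, not every array correlated best with its own number, and the numbers were not treated as pairs. With the replicate block limma called 0 of the 24 probe sets and 1 of all 45037. An unadjusted p under 0.05 was found for 15 of the 24, beside 5128 of all 45037.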
